A study of Mus musculus with 384 samples.

Results

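The windows described here are accessible sites in a mouse breast tumor that lie outside genes, at a middle distance from the start sites of genes. Of the 50000 accessible windows of 500 bp deposited for this tumor, 7219 (14.4%, exact binomial 95% interval 14.1 to 14.7%) had a centre inside no annotated transcript and more than 10 kb, up to 50 kb, from the nearest annotated transcription start site. They made up 40.4% of the 17853 windows outside transcripts. Annotation alone chose them (GENCODE vM1 on the mouse genome build mm9), with no measured value involved.

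The study used Pi-ATAC, a single-cell chromatin assay in which fixed cells are stained with antibodies, a transposase cuts their open chromatin in bulk, and each cell is then sorted into a well while its stain is recorded. All wells (4 plates of 96) came from breast tumor tissue of the MMTV-PyMT mouse, in which a mammary virus promoter drives the polyoma middle T oncogene, and carried stains against EpCAM, an epithelial surface protein, and CD45, a protein of all leukocytes. By the paper, mice were killed at 3 months of age, and the EpCAM+ and CD45+ cells were taken from a single tumor. Every well belongs to 1 group and the files hold 1 list of windows from all cells pooled, so EpCAM+ and CD45+ cells were not compared and the spread between cells or animals is unknown. By the paper, the cells that passed its filter were EpCAM+ or CD45+, with slightly more CD45+ cells. Among all stained tumor cells CD45+ cells were a small minority, so leukocytes are a larger share of the pooled cells than of the tumor. The windows carry positions and no counts or scores. The depth behind each is therefore unknown, and the intervals below cover counting error only. In place of replicates, results were set against their spread over the 20 chromosomes, which are parts of 1 list and not independent samples.

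Open chromatin far from start sites is mostly made of enhancers, where transcription factors displace nucleosomes and act on a promoter by looping, and of insulator sites held by CTCF. In many tissues such distal sites differ between cell types more than promoters do. AP-1, a dimer of Fos and Jun proteins that opens chromatin at the word TGAGTCA, is active in epithelial tumor cells and in activated leukocytes. RUNX proteins and the Ets factor PU.1 act in blood cells, RUNX proteins also in mammary epithelium. A window nearest to a gene need not act on that gene.

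The sequence of the windows nearest to the genes of both stained proteins is shown first. Epcam (chromosome 17, plus strand) had 6 such windows, all upstream of its start site, and Ptprc, the gene of CD45 (chromosome 1), had 1, also upstream. Neither gene had a listed window within 1 kb of its start sites. Capitals mark 4 words searched on both strands, AP-1 (TGAGTCA or TGACTCA), RUNX (TGTGGTT, read as AACCACA on the other strand), PU.1 (GAGGAAGT or ACTTCCTC) and CTCF (searched as a degenerate word). Stretches around the words, or the middle of the window where it holds none of them, are given on the plus strand of mm9 and named by their distance to the start site.
Epcam, 32675 bp upstream (chr17:88002594-88002693, plus strand): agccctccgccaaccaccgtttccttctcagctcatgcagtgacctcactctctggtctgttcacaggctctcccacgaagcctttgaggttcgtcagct
Epcam, 26356 bp upstream (chr17:88009137-88009212, plus strand): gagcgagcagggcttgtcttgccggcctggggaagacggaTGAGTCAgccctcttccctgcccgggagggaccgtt
Epcam, 24898 bp upstream (chr17:88010438-88010524, plus strand): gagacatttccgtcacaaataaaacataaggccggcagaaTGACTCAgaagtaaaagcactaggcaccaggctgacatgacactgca
Epcam, 22283 bp upstream (chr17:88012986-88013085, plus strand): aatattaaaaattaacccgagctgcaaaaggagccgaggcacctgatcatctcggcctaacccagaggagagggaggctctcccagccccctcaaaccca
Epcam, 18964 bp upstream (chr17:88016168-88016335, plus strand): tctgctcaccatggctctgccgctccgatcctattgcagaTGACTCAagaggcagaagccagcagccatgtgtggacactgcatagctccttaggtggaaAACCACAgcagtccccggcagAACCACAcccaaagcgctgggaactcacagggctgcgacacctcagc
Epcam, 15792 bp upstream (chr17:88019607-88019694, plus strand): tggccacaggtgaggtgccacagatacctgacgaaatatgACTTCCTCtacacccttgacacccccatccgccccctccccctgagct
Ptprc, 16678 bp upstream (chr1:140088510-140088609, plus strand): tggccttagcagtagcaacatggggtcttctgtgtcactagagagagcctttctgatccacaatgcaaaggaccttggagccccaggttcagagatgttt
Of the 6 Epcam windows, 3 held the AP-1 word, 1 of these also held 2 RUNX words, and 1 held the PU.1 word. The windows at 32675 and 22283 bp and the Ptprc window at 16678 bp held none of the 4 words. The words did not sit at the window middles here: the 3 AP-1 words lay 217.5, 60.5 and 143.5 bp from the centre. Of the words named below, the Ptprc window held only CAGCTG, in 2 copies, and the Epcam window at 22283 bp held CACCTG 8 bp from its centre.

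For each word on which the results turn, the window of a named gene with the word closest to its centre is shown, with the word in capitals.
AP-1, window nearest Kdr (chr5:76386398-76386484, plus strand): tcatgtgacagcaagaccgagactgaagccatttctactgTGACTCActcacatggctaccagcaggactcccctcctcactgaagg
Bach and Nrf2 element, window nearest Gm9530 (chr1:156898444-156898533, plus strand): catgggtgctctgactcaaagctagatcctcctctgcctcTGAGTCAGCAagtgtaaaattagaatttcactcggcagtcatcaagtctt
CTCF, window nearest SNORA14 (chr8:129439078-129439169, plus strand): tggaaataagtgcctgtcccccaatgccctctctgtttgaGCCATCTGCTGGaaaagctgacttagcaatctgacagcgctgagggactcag
RUNX, window nearest Gm14642 (chr2:173235167-173235253, plus strand): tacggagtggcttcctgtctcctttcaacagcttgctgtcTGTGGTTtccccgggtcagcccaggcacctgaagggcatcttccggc
PU.1, window nearest E2f8 (chr7:56152625-56152712, plus strand): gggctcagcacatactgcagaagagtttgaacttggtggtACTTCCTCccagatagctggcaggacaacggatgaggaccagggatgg
E-box, window nearest Azin1 (chr15:38377106-38377191, plus strand): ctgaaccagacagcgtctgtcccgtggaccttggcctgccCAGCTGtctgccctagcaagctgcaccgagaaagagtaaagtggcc
SP, window nearest Vav1 (chr17:57470537-57470624, plus strand): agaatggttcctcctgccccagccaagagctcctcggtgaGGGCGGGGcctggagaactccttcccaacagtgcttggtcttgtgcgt
MEF2, window nearest Gm9530 (chr1:156906746-156906835, plus strand): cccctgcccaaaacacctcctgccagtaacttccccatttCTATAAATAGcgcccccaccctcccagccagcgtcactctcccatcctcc
Of the windows shown, the MEF2 window (Gm41980) and the Epcam window at 22283 bp (Gm46609) have a RefSeq gene start within 1 kb that the gene models used here lack. Promoter-like windows were few among the 7219 in all. A RefSeq start lay within 1 kb of 240 (3.32%), where the same search found one at 944 of 1331 promoter windows checked (70.9%). Windows rich in CpG, the base pair step that is dense at many promoters, numbered 150 (2.08%, exact interval 1.76 to 2.43%), against 60.0% of listed promoter windows (centre no more than 1 kb from a start site) and 0.278% of tiles of the same zone. Of these 150, 34 (22.7%) were near a RefSeq start.

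The windows were sparser than intergenic windows closer to start sites and denser than those farther away. The zone they come from measured 501 Mb (19.6% of the sequence tiled in 500-bp steps), which gave 14.4 windows per Mb (exact Poisson interval 14.1 to 14.7). Intergenic sequence 1 to 10 kb from a start site held 17.4 windows per Mb, and the ratio of the 10 to 50 kb zone over it was 0.826 ± 0.021 (jackknife SE over 20 chromosomes), lower on all 20 chromosomes (two-sided exact permutation p = 1.90735e-06 by flipping signs of chromosomes, the smallest it can give). Intergenic sequence over 50 kb away held 8.63 per Mb, and the ratio over it was 1.67 ± 0.11, higher on 20 of 20 chromosomes (exact p = 1.90735e-06). Introns at the same 10 to 50 kb distance held 18.7 per Mb, and the ratio over them was 0.770 ± 0.029, higher on 1 of 20 chromosomes (exact p = 9.53674e-06).

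Inside the zone each step away from the start site was less dense than the one before it, as a description with no test. The density was 15.5 windows per Mb at 10 to 20 kb (2916 windows), 14.8 at 20 to 30 kb (1953), 13.4 at 30 to 40 kb (1346) and 12.46 at 40 to 50 kb (1004). The exact intervals of the steps at 10 to 20 and 20 to 30 kb overlap, 15.0 to 16.1 and 14.1 to 15.5 per Mb, as do those at 30 to 40 and 40 to 50 kb, 12.7 to 14.1 and 11.7 to 13.3 per Mb. No break stood at 50 kb, since the next step, 50 to 60 kb, held 12.0 per Mb. The median distance was 23162 bp, against 24364 bp over tiles of the zone. Direction made no measurable difference: 57.8% of windows lay upstream of the nearest start site, as did 57.8% of the zone, and the ratio of the densities, upstream over beyond the gene, was 1.00 ± 0.02 (exact permutation p = 0.565, higher on 9 of 20 chromosomes).

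**Figure D1:**
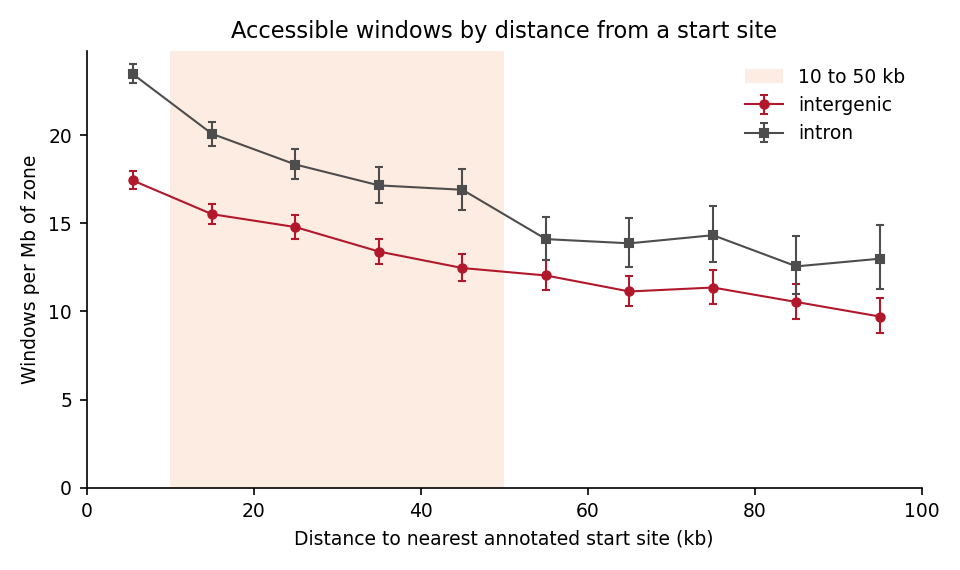
Windows per Mb of sequence (vertical axis) against distance to the nearest start site in kb (horizontal axis), for intergenic sequence and introns, with exact Poisson 95% intervals as bars. Intergenic density was lower in each step between 10 and 50 kb than in the one before, with 12.46 per Mb in the last step, and introns lay above intergenic sequence there.

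Chromosomes 7, 8, 9 and X stand apart in the whole list. From the running numbers in the window names, 42.3 to 52.6% of the peaks called on them were kept, against 24.0 to 27.0% on the other 16 chromosomes. They hold 2472 of the 7219 windows (34.2%), and their densities ran from 11.3 to 30.6 per Mb, against 10.1 to 15.6 on the others. These chromosomes also come last in the order in which the peaks are numbered. The share kept was 42.3% on chromosome 7, 52.6% on 8, 51.2% on 9 and 46.8% on X. The cause was not tested, nor whether the order of numbering bears on it. For many results, though not for all, values without these chromosomes are given as well. Without them the density of the zone was 12.6 per Mb, and its ratio over intergenic sequence beyond 50 kb was 1.88 ± 0.08.

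Windows lay more densely beside genes whose own promoter was accessible. Each stretch of the zone was assigned to the gene with the nearest start site and split by whether that gene had a listed window within 1 kb of one of its start sites. Stretches beside genes with such a promoter window held 23.1 windows per Mb (2638 windows in 114.1 Mb), against 11.8 per Mb beside genes without one (4581 windows in 387 Mb). The ratio was 1.95 ± 0.10 (jackknife SE), higher on 20 of 20 chromosomes (two-sided exact permutation p = 1.90735e-06), and 1.84 without chromosomes 7, 8, 9 and X. It was 1.97 ± 0.16, 1.77 ± 0.10, 1.97 ± 0.15 and 2.23 ± 0.16 in the 4 steps of 10 kb from near to far, with no steady decline over this distance. Where the nearest gene was protein-coding it was 1.792 ± 0.112. Where the nearest gene was a lincRNA, a long RNA that codes for no protein, the densities were 28.4 and 22.7 per Mb, a ratio of 1.25 ± 0.18 that did not pass the test (exact p = 0.426, higher on 11 of 20 chromosomes).

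**Figure D2:**
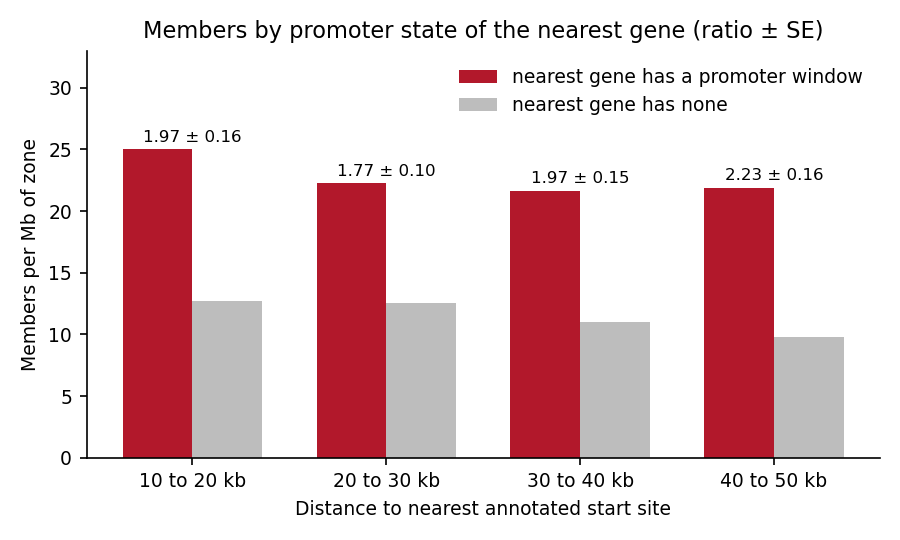
Windows per Mb of the 10 to 50 kb zone (vertical axis) by distance step (horizontal axis), beside genes with and without a listed promoter window. The ratio of the densities ± jackknife SE is printed above each pair of bars. In each step the density beside genes with a promoter window was 1.77 to 2.23 times that beside genes without one.

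By the kind of the nearest gene, the density was highest beside lincRNA genes, with 25.0 windows per Mb (exact interval 22.2 to 28.0). Protein-coding genes had 16.7 per Mb (4491 windows), processed transcripts 16.3 and rRNA genes 16.9. Pseudogenes, inactive gene copies, had the lowest density at 8.62 per Mb (740 windows). The small RNA genes lay between, with 12.8 per Mb for miRNA, 11.6 for snRNA and 10.6 for snoRNA genes. The intervals of lincRNA genes and protein-coding genes (16.2 to 17.2) do not overlap, and those of rRNA genes (13.7 to 20.6) and protein-coding genes do. These densities are a description, with no test.

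Few of the windows came from compound peaks. The peak caller had split 79 of the 7219 (1.09%) from a peak with several summits, against 1.96% of intergenic windows at 1 to 10 kb (log2 ratio −0.84 ± 0.33, higher on 4 of 20 chromosomes, exact permutation p = 0.00171), 0.371% of those beyond 50 kb (1.56 ± 0.52, higher on 14 chromosomes, exact p = 0.0011) and 0.416% of intronic windows at 10 to 50 kb (1.40 ± 0.46, higher on 14 chromosomes, exact p = 0.00191). Among windows that overlap no other, the shares were 0.188%, against 0.595%, 0.0331% and 0.0289% in these classes, with log2 ratios of −1.66, 2.50 and 2.70 (exact permutation p = 0.000475, 0.0288 and 0.0211). The ratios over windows beyond 50 kb and over introns rest on very few split windows. Their SE could not be computed, because leaving out a single chromosome left no split window in those classes. The minimum count set for words was not applied here. In all 4.10% of the windows overlapped another listed window, and the 7219 windows merged into 7069 regions.

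The windows were richer in GC than the sequence around them. Their median GC content was 48.2% (middle range 45.0 to 51.4%), against 41.6% in tiles of the zone, with a median of 5 and 3 CpG per 500 bp. Because GC content alone changes how often a word occurs, each share of windows with a word was set against the share expected from tiles of the same zone with the same GC content, in bins of 2%. A set of 40 words of transcription factor families was searched, of which 33 were expected in at least 20 windows and were tested. Adjusted p-values come from two-sided exact permutation over chromosomes with Benjamini-Hochberg adjustment over all word tests of the 5 comparisons. Of the 33 words, 19 (57.6%) were more frequent in the windows than expected and 3 (9.09%) less frequent.

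AP-1 was the most widespread of the strongly enriched words. It was found in 1219 windows (16.9%), where 8.28% was expected (7.58% of all tiles held it), which gave a log2 ratio of 1.03 with a jackknife SE of 0.06. The share lay above its expectation on 20 of 20 chromosomes (adjusted p = 0.000151, exact permutation). Of these windows 1024 held it once and 19 in 3 or more copies, with at most 6 in 1 window. The longer element of Bach and Nrf2 factors, TGAGTCAGCA or TGACTCAGCA, which contains the AP-1 word, was in 1.52% of windows against an expected 0.518% (log2 ratio 1.56 ± 0.15, higher on 19 of 20 chromosomes). CTCF, the insulator protein, had the largest ratio among the tested words, with its word in 1.52% of windows and 0.432% expected (1.82 ± 0.14, adjusted p = 0.000172). The AP-1 word with its letters reversed (ACTGAGT or ACTCAGT), searched as a control, was in 9.47% of windows against 7.57% expected (0.32 ± 0.08, adjusted p = 0.0065). It can overlap the true word, and in windows and tiles without AP-1 its shares were 7.73% and 6.77% (0.19 ± 0.08, adjusted p = 0.0962).

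Words of blood cell and Ets factors were also more frequent than expected. PU.1, which directs myeloid and B cells, was in 5.40% of windows against 3.72% (log2 ratio 0.54 ± 0.09, higher on 19 chromosomes). The Ets word without CpG (ACAGGAAGT) was in 2.12% against 1.06% (1.00 ± 0.09), and the Ets word with CpG (CCGGAAGT), typical of promoters, in 0.873% against 0.492% (0.83 ± 0.19, adjusted p = 0.0201). Both share their last 6 letters with PU.1, GGAAGT. RUNX was in 13.1% of windows against 10.2% (0.36 ± 0.04, higher on 18 chromosomes, adjusted p = 0.000854). IRF, the word of interferon regulatory factors, was in 6.26% against 5.53% (0.18 ± 0.05, adjusted p = 0.0134), a ratio that turns to −0.41 without the GC standardisation and to −0.24 against sequence 5 kb to either side, and whose adjusted p is 0.0734 without chromosomes 7, 8, 9 and X.

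Among words of epithelial and stress factors, TEAD (ACATTCC), the partner of YAP in the Hippo pathway, was in 7.72% of windows against 6.72% expected (log2 ratio 0.20 ± 0.06, adjusted p = 0.00612). HIF (ACGTGC), bound by the hypoxia-inducible factors, was in 6.36% against 5.29% (0.26 ± 0.04, adjusted p = 0.00325). AP-2 (GCCNNNGGC), of factors active in mammary epithelium, was in 13.9% against 11.4% (0.28 ± 0.04, adjusted p = 0.00199). SP (GGGCGGGG) was in 3.99% against 2.75% (0.54 ± 0.08). The E-box CAGCTG, of the type bound by E proteins, was in 27.4% against 24.8% (0.15 ± 0.03, adjusted p = 0.00729). The E-box CACGTG, which overlaps HIF where a C follows it, was in 7.72% against 6.39% (0.27 ± 0.07, adjusted p = 0.0207). CACGTG did not pass when CpG count was standardised along with GC content (adjusted p = 0.133). The log2 ratios of TEAD, HIF, AP-2, CAGCTG and CACGTG, and that of IRF, were smaller than the 0.32 of the reversed control.

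MEF2, a factor of muscle and of some leukocytes, had its word in 1.14% of windows against 0.557% expected (log2 ratio 1.03 ± 0.12, adjusted p = 0.000864), but the ratio was 0.14 without the GC standardisation and 0.37 against sequence 5 kb away, neither of which passed the test. The words of FOX (TGTTTAC), NFI (TTGGCA) and RFX passed narrowly, with log2 ratios of 0.17 ± 0.06, 0.09 ± 0.04 and 0.55 ± 0.20 and adjusted p of 0.0289, 0.0296 and 0.0493, and none of them passed without chromosomes 7, 8, 9 and X. Leaving out a single chromosome also ended the call of FOX (7, 16 or X), NFI (5, 10 or 12) and RFX (1, 3, 5, 6, 7, 11, 14, 15, 16, 17, 19 or X). FOX turns to −0.12 without the GC standardisation. The 3 words less frequent than expected were YY1 (CAAGATGGC), in 1.48% against 2.52% (−0.76 ± 0.24, adjusted p = 0.00885, but 0.33 without the GC standardisation), SOX (ACAATGG), in 6.95% against 7.77% (−0.16 ± 0.05, adjusted p = 0.0263), and the E-box CACCTG, of the type bound by Snail and Zeb, in 34.5% against 36.0% (−0.06 ± 0.02, adjusted p = 0.0300, but 0.39 without the GC standardisation). SOX and CACCTG did not pass without chromosomes 7, 8, 9 and X, nor did SOX without chromosome 12 or X, or CACCTG without chromosome 2, 4, 5 or 8.

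**Figure D3:**
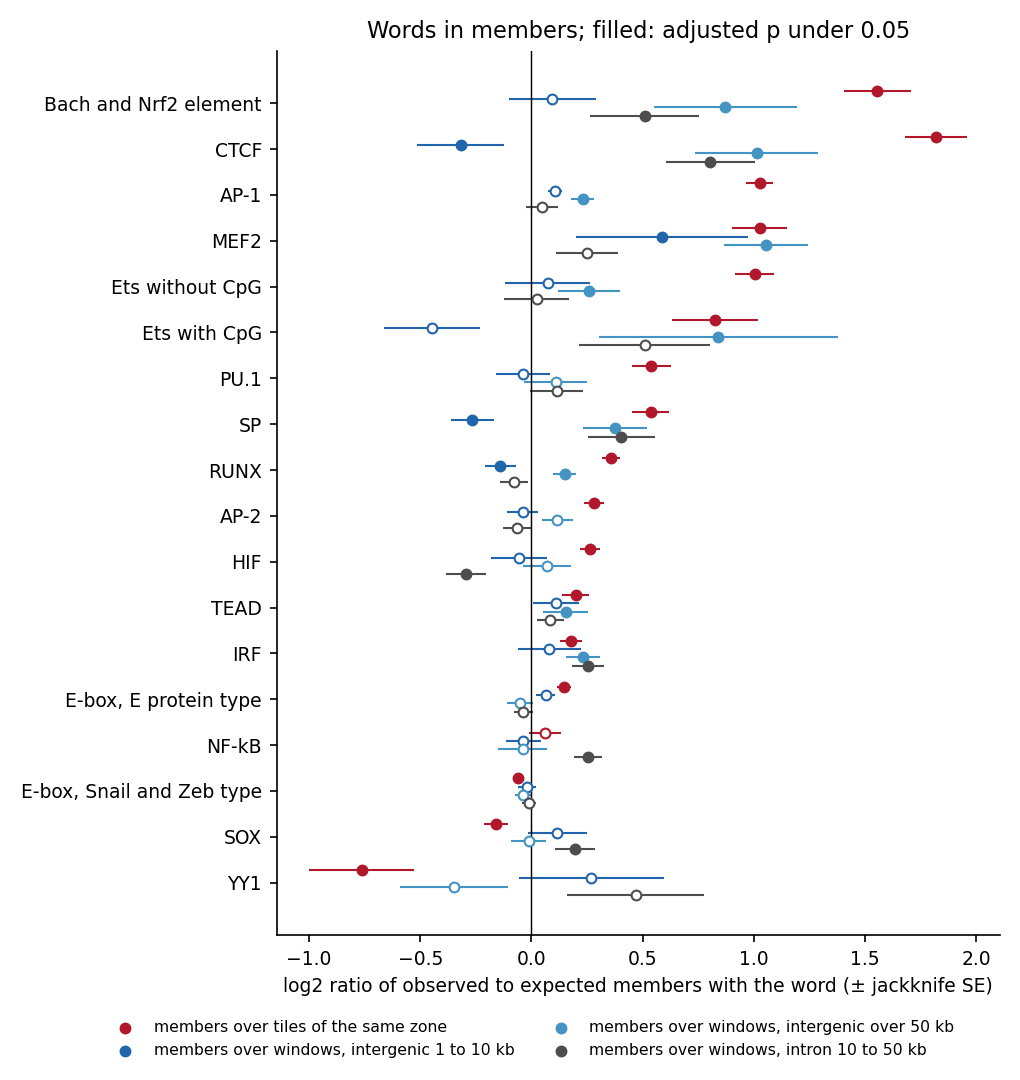
Log2 ratio of the share of windows with a word over the share expected at the same GC content (horizontal axis), for named words (vertical axis), against tiles of the zone and against the other classes of listed windows, with jackknife SE over 20 chromosomes as bars. Against tiles CTCF (1.82), the Bach and Nrf2 element (1.56) and AP-1 (1.03) lie far to the right.

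Compared with other listed windows, standardised to the same GC content in bins of 5%, the 10 to 50 kb windows differed in few words from intergenic ones 1 to 10 kb from start sites. Against these, 1 of 33 words (3.03%) was more frequent and 3 (9.09%) less frequent. CTCF was in 1.52% of the windows, against an expected 1.90% from those at 1 to 10 kb (log2 ratio −0.32 ± 0.20, higher on 3 of 20 chromosomes, adjusted p = 0.00518). SP was in 3.99% against 4.80% (−0.27 ± 0.10, adjusted p = 0.00324) and RUNX in 13.1% against 14.4% (−0.14 ± 0.07, adjusted p = 0.0201). Without the GC standardisation RUNX was still lower, 13.1% against 13.9%, but did not pass (adjusted p = 0.124). MEF2, the word that was more frequent, was in 1.14% against 0.756% (0.59 ± 0.39, adjusted p = 0.00991), and its ratio was 0.00 without chromosomes 7, 8, 9 and X. AP-1 was in 16.9% against 15.7% (0.10 ± 0.03, adjusted p = 0.265). In the comparisons between listed windows the permutation takes the expected shares as exact. Its p-values therefore leave out the counting error of the comparison windows, which the jackknife SE takes in. That SE is large beside the ratios of CTCF (−0.32 ± 0.20), RUNX (−0.14 ± 0.07) and MEF2 (0.59 ± 0.39) here.

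More words differed from intergenic windows over 50 kb from start sites. Of 33 words 12 (36.4%) were more frequent in the 10 to 50 kb windows and 0 (0%) less frequent, with 0 words lower at an unadjusted exact p under 0.05 as well. CTCF was in 1.52% of windows against 0.755% (log2 ratio 1.01 ± 0.28, adjusted p = 0.000999) and the Bach and Nrf2 element in 1.52% against 0.833% (0.87 ± 0.32, adjusted p = 0.000999). AP-1 was in 16.9% against 14.4% (0.23 ± 0.05, higher on 18 of 20 chromosomes, adjusted p = 0.0165). SP (0.38 ± 0.14, adjusted p = 0.000999) and MEF2 (1.05 ± 0.19, adjusted p = 0.000864) were more frequent too. IRF, RUNX, TEAD, CACGTG, RFX and both Ets words made up the rest, with log2 ratios from 0.15 to 0.84. The jackknife SE was large beside the ratios of the Ets word with CpG (0.84 ± 0.54) and RFX (0.55 ± 0.54). Of these 7, RUNX, IRF and TEAD did not pass without the GC standardisation, and CACGTG and RFX did not pass without chromosomes 7, 8, 9 and X.

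Against introns at the same distance from a start site, 6 of 33 words (18.2%) were more frequent outside genes and 1 (3.03%) less frequent. CTCF was in 1.52% of the intergenic windows against 0.873% expected from intronic ones (log2 ratio 0.80 ± 0.20, higher on 16 of 20 chromosomes, adjusted p = 0.00229). SP (0.40 ± 0.15, adjusted p = 0.000854), IRF (0.26 ± 0.07, adjusted p = 0.00199), NF-kB, the inflammatory factor, in 11.1% against 9.34% (0.25 ± 0.06, adjusted p = 0.00318), and SOX (0.20 ± 0.09, adjusted p = 0.00729) were more frequent as well. The Bach and Nrf2 element had a ratio of 0.51 ± 0.24 (adjusted p = 0.0252), and 0.43 without chromosomes 7, 8, 9 and X, where it did not pass (adjusted p = 0.0615). HIF was the word less frequent outside genes, in 6.36% against 7.79% (−0.29 ± 0.09, higher on 2 of 20 chromosomes, adjusted p = 0.000414). AP-1 had a ratio of 0.05 ± 0.07 that did not pass (adjusted p = 0.651).

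Several words were more frequent around the window centre, which is the summit placed by the peak caller, than near the window edges. Words within 50 bp of the centre were counted against those 190 to 240 bp from it, a comparison inside the same windows in which 26 words had at least 40 occurrences in both places together. Of these 7 (26.9%) were more frequent at the centre and 1 (3.85%) less. GC content was not standardised between centre and edges, and whether it differs between them was not tested. AP-1 occurred 52.6 times per 1000 windows at the centre against 24.7 at the edges (log2 ratio 1.09 ± 0.10, higher on 20 of 20 chromosomes, adjusted p = 0.000151). PU.1 occurred 15.5 times against 8.73 (0.83 ± 0.16, adjusted p = 0.00322), NF-kB 35.5 against 21.9 (0.69 ± 0.15, adjusted p = 0.000999) and SP 13.0 against 6.51 (0.99 ± 0.22, adjusted p = 0.000784), each per 1000 windows. SP did not pass with 200 bp taken for centre and edges alike (log2 ratio 0.44, adjusted p = 0.0784). The AP-1 profile was broad, with its highest bin of 20 bp at +70 bp from the centre (99 occurrences) and 74 and 73 in the bins beside the centre. The E-boxes CAGCTG, with 78.1 against 53.7, and CACCTG, with 103.3 against 82.3, and AP-2, with 38.6 against 26.2, passed with smaller ratios of 0.54, 0.33 and 0.56. IRF was the word with fewer at the centre, 10.1 against 16.6 per 1000 windows (−0.71 ± 0.25, adjusted p = 0.0260).

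RUNX, more frequent than expected in the windows, did not pass this test, with 27.7 occurrences per 1000 windows against 24.1 at the edges (log2 ratio 0.20 ± 0.17, adjusted p = 0.393). The reversed AP-1 control had 20.4 against 18.7. CTCF had 17 occurrences in all at the centre and 13 at the edges, too few to test. NF-kB, more frequent at the centre than at the edges, was not measurably more frequent in the windows as a whole, with 11.1% against 10.7% expected (log2 ratio 0.06 ± 0.07, adjusted p = 0.613).

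**Figure D4:**
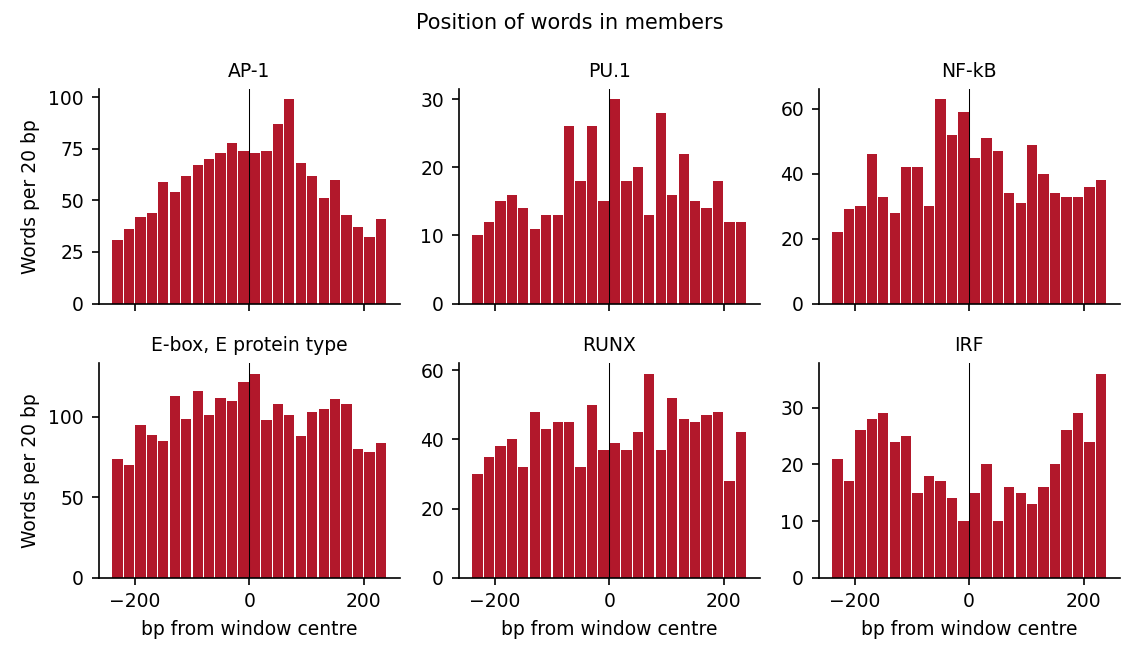
Occurrences of named words per 20 bp (vertical axis) against distance from the window centre in bp (horizontal axis), summed over the 7219 windows. AP-1 forms a broad rise over the middle of the window that is highest at +70 bp, with 52.6 occurrences per 1000 windows within 50 bp of the centre against 24.7 at 190 to 240 bp, while RUNX is nearly flat (27.7 against 24.1).

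The windows beside genes with an accessible promoter also differed in their words, a comparison added after the densities had been seen. Of 31 words tested, 3 (9.68%) were more frequent beside such genes and 0 (0%) less frequent, with 1 word, YY1, lower at an unadjusted exact p under 0.05. AP-1 was in 19.6% of windows beside genes with a promoter window, against 15.6% expected from the others at the same GC content (log2 ratio 0.33 ± 0.08, higher on 18 of 20 chromosomes, adjusted p = 0.0166 over these 31 words). RUNX was in 14.6% against 12.1% (0.28 ± 0.09, adjusted p = 0.0181) and CAGCTG in 30.6% against 26.6% (0.20 ± 0.06, adjusted p = 0.0181). Without chromosomes 7, 8, 9 and X the ratios were 0.29, 0.18 and 0.15 and none passed (adjusted p = 0.119, 0.240 and 0.128). The share of windows with AP-1 changed little with distance, being 17.6%, 16.3%, 15.8% and 17.6% in the 4 steps from near to far, with overlapping exact intervals. Windows with AP-1 held CAGCTG in 33.1% of cases, where windows without AP-1 at the same GC content gave 27.5% (higher on 18 of 20 chromosomes, a description with no test).

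The 7219 windows were nearest to the start sites of 4690 genes. Among 12345 protein-coding genes with some of the zone nearest to them, 2916 (23.6%) had at least 1 window there, 935 at least 2, 76 at least 5 and 1 at least 10. Summed over all protein-coding genes this gave 1.67 windows per 100 kb of zone (exact Poisson interval 1.62 to 1.72), the level against which 13 lists of genes for cell types and pathways are described. No test was made over the lists. The median number of windows per gene with zone was 2 in the AP-1 list, 1 in the T and NK cell list, 0.5 in the hypoxia list and 0 in the other lists and over all protein-coding genes.

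The list of AP-1 and related genes, which holds Fos and Jun genes with Atf3, Batf, Bach and small Maf genes of the same protein class, had the highest density of the 13 lists, with 14 windows in their zone, or 7.57 per 100 kb (exact interval 4.14 to 12.7), and 6 of their 7 genes with any zone had at least 1. Of the 14, 6 lay at Fos and Fosb and 8 at Bach1, Bach2, Batf and Batf3. Fos, the inducible partner of Jun, had 3 windows, 36465 and 16720 bp upstream and 10965 bp from the start on the far side of the gene. Fosb, its close relative, had 3 upstream windows at 10084, 11605 and 17079 bp, and 2 of them held the AP-1 word. Bach1, a repressor that pairs with small Maf proteins, had 3 upstream windows 33036, 37372 and 37774 bp away, none with the AP-1 word. Batf and Batf3, which act in lymphocytes and dendritic cells, had 2 each, with the AP-1 word in 1 of each pair. Maff had 0, in 1.5 kb of zone. Jun, Junb, Jund, Fosl1, Fosl2, Atf3 and Mafk had no zone of this kind, so nothing can be read from them.

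Hypoxia genes followed, at 3.91 windows per 100 kb (2.19 to 6.44), with windows at 7 of 14 genes. Pfkfb3, which makes the allosteric activator of glycolysis, had 5 windows between 11090 and 33428 bp, 3 upstream and 2 beyond the gene. RefSeq has a Pfkfb3 start farther out, within 1 kb of the window chr2:11475013-11475512, and the 3 upstream windows lie between it and the start used here, inside the gene by that model. Hk2, a hexokinase, had 3 upstream at 41597 to 49772 bp, and Ddit4, a stress inhibitor of mTOR, and Vegfa, the endothelial growth factor, had 2 each. Slc2a1, a glucose transporter, and Pgk1, a glycolytic enzyme, had 0, in only 10 and 2 kb of zone. The lower ends of the intervals of the AP-1 and hypoxia lists lie above the level of all protein-coding genes. However, 6 of the 7 AP-1 genes and 11 of the 14 hypoxia genes with zone had a promoter window, against 4815 of 12345 of all protein-coding genes, and protein-coding genes with a promoter window stood at 2.30 per 100 kb, which lies inside the interval of the hypoxia list and below that of the AP-1 list.

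Among epithelial genes the luminal list had 11 windows, or 3.03 per 100 kb (1.51 to 5.42), an interval that includes the level of all protein-coding genes. Epcam accounted for 6 of the 11, Cldn4, a tight junction protein, had 2, both upstream, and Erbb3, Gata3 and Krt18 had 1 each. Gata3, a factor of luminal and of T cells, stands in both lists. The other 14 of 19 luminal genes had 0, among them Krt8, Cdh1 and Esr1, in 17, 5 and 11.5 kb of zone. The basal and myoepithelial list had 0 windows at 7 genes in 93 kb of zone, which allows up to 3.97 per 100 kb. The luminal value depends on the assignment, being 1.28 per 100 kb with 13 windows when each window is given to the nearest protein-coding gene. By that assignment all protein-coding genes stood at 1.44.

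By the nearest start site, leukocyte genes lay at similar levels. The general leukocyte list had 7 windows at 4 of 11 genes, or 2.94 per 100 kb (1.18 to 6.06). By the nearest protein-coding gene it had 14 windows, or 3.91 per 100 kb, where all protein-coding genes stood at 1.44. Without chromosomes 7, 8, 9 and X it stood at 3.78, and all protein-coding genes at 1.43. Of the 11 leukocyte genes with zone, 9 had a promoter window. By the nearest start site, protein-coding genes with a promoter window stood at 2.30 per 100 kb, inside the interval of the leukocyte list. Laptm5, a lysosomal protein of blood cells, had 3 upstream windows at 10241, 12990 and 23016 bp, Vav1, a signalling protein of blood cells, had 2, and Ptprc and Runx1 had 1 each. T and NK cell genes had windows at 10 of 14 genes, or 3.18 per 100 kb (1.59 to 5.69), but 9 of these 10 had only 1, among them Cd3e, a chain of the T cell receptor complex, Cd8a and Bcl11b. Klrb1c had 2 and Cd4 had 0, in 1 kb of zone. Given to the nearest protein-coding gene, the T and NK cell list stood at 1.67 per 100 kb. Myeloid genes had 4 windows at 3 of 14 genes (2.01 per 100 kb, 0.546 to 5.13), with 2 at Tyrobp, an adaptor of activating receptors, and 1 each at Csf3r and Fcgr3. Tyrobp is on chromosome 7, and without chromosomes 7, 8, 9 and X the myeloid list stood at 1.59 per 100 kb. B cell genes had 2, both at Bank1 (1.59 per 100 kb, 0.192 to 5.73), a value of 0.547 by the nearest protein-coding gene and of 2.60 without chromosomes 7, 8, 9 and X.

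Endothelial genes had 8 windows at 4 of 9 genes, or 3.22 per 100 kb (1.39 to 6.34). Cdh5, the cadherin of endothelial junctions, had 4 upstream windows between 10036 and 25524 bp, Cldn5 had 2, and Emcn and Kdr had 1 each. Cdh5 is on chromosome 8, and without chromosomes 7, 8, 9 and X the list stood at 1.92 per 100 kb. Fibroblast genes had 5 windows at 4 of 11 genes (1.04 per 100 kb, 0.339 to 2.44), with 2 at Dcn, a proteoglycan of the matrix, and 1 each at Lum, Thy1 and Twist1. Lists for other tissues had 3 windows for muscle (1.81 per 100 kb, 0.374 to 5.30, and 0.797 without chromosomes 7, 8, 9 and X), 4 for liver (1.70, 0.463 to 4.35) and 1 for neuron (0.562, 0.0142 to 3.13). Their intervals overlap those of the epithelial, leukocyte, endothelial and fibroblast lists, and no test of a difference was made.

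**Figure D5:**
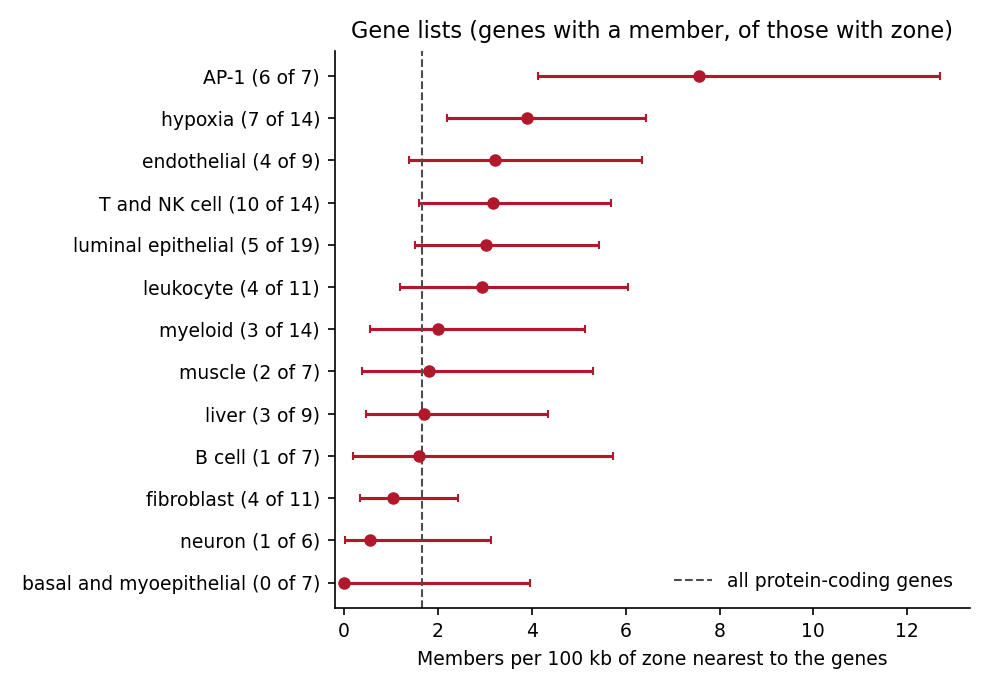
Windows per 100 kb of the 10 to 50 kb zone nearest to the genes of each list (horizontal axis) for the 13 lists (vertical axis), with exact Poisson 95% intervals and the level of all protein-coding genes (1.67 per 100 kb) as a line. The AP-1 list (7.57) and the hypoxia list (3.91) have intervals wholly above the line, and the hypoxia interval includes the 2.30 per 100 kb of protein-coding genes with a promoter window.

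The single protein-coding gene with most windows was Sik1, a salt-inducible kinase, on chromosome 17. Its 10 windows lay between 13418 and 41206 bp from the start site, 4 upstream and 6 beyond the gene, and 3 held the AP-1 word. The upstream Sik1 windows at 15068 and 41206 bp have a RefSeq gene start within 1 kb (Gm30509 and Gm41566). E2f8, a repressor of the cell cycle on chromosome 7, had 9, all upstream between 15693 and 49565 bp, and A230072I06Rik on chromosome 8 also had 9. The E2f8 window at 27913 bp has a RefSeq gene start within 1 kb (LOC115486410). Outside chromosomes 7, 8, 9 and X, genes with 7 each followed. Among these were Klf6, an inducible zinc finger factor, Azin1, a regulator of polyamines, and Dusp5, a phosphatase that turns off ERK. The list was cut in alphabetical order among ties, and Nenf on chromosome 1, left out by that cut, also had 7. Klf6 had 5 upstream and 2 beyond the gene, 3 of them with AP-1. At Dusp5 6 of the 7 lay beyond the gene within 15090 to 20917 bp of its start, and 0 held AP-1. Higher counts belonged to genes of RNAs that code for no protein, 14 and 12 at a copy of 7SK on chromosomes 12 and 9, 12 at the miRNA gene AC158749.1 and 11 at the lincRNA gene 5830416P10Rik.

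Joined where neighbours lay within 0.0125 Mb of each other, the windows formed 5325 stretches, 4144 with a single window, 786 with 2 and 395 with 3 or more, which together held 1503 windows (20.8%). The median gap between neighbours was 96084 bp, and 16.3% of gaps were within 5 kb. The 5 stretches with 10 or more windows were chr7:82920087-82945783 (12 windows, nearest protein-coding gene Klhl25), chr12:88164700-88209257 (11, 6430527G18Rik), chr19:53475023-53509490 (11, Smndc1), chr2:167556806-167592397 (11, Tmem189) and chr8:129432654-129453219 (10, Tomm20), all in mm9. AP-1 was in 3, 3, 3, 1 and 3 of their windows in that order, and the CTCF word in 1 window of the chromosome 8 stretch and 0 of the others. On chromosome 1 a stretch of 8 windows, chr1:156887253-156907416, lay nearest to Ier5, an immediate early gene, among protein-coding genes. RefSeq gene starts lie within 1 kb of windows in this stretch (Gm41980) and in those on chromosomes 7 (AU020206) and 12 (Gm40491).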

How the data were processed

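Cells of a breast tumor of an MMTV-PyMT mouse were fixed, stained for EpCAM and CD45, tagmented and sorted into single wells. The authors trimmed adapters, aligned reads to mm9 with Bowtie2 2.1.0, removed low-quality, mitochondrial and duplicate reads (Picard 1.79), called summits with MACS2 at q 0.05 on all cells together, widened them to 500 bp and kept the 50000 with the lowest q-values. For MACS2, the sources used here name no version. The deposited table holds positions and names only, here in the unit other, without score, count or p-value, so the depth per window is unknown.

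Windows were placed by their centre against GENCODE vM1 transcripts. Zone lengths and word backgrounds came from tiles of 500 bp free of unknown bases. Ratios were tested by a two-sided exact sign-flip permutation over 20 chromosomes (smallest p 1.90735e-06), with jackknife SE, in Python 3.11.15 with numpy 2.4.6, scipy 1.17.1 and pandas 2.3.3. Words were standardised to GC bins of 2% (tiles) or 5% (windows). Words expected in fewer than 20 windows were left untested, a minimum added after the data had been seen because the test made false calls on words with no occurrence in simulated data. RefSeq starts (GRCm38.p6, 32851) were matched on 100 bases of the same chromosome, and no coordinates were converted. Of 212 listed genes 210 matched the annotation. The named genes are Epcam and Ptprc, up to 4 genes with most windows in each list with some defining genes without any, the 10 genes with most windows with and without chromosomes 7, 8, 9 and X, and the 5 largest stretches. Ties were cut in alphabetical order. The members, words and lists were chosen with earlier results of these data known. Alternatives were other standardisations and backgrounds, other annotation and assignment rules, and leaving out chromosomes.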

Additional observations from a re-analysis of the deposited data

How the results depend on the processing

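Of the results recomputed under other settings, 759 kept their direction and their side of the threshold, 56 kept the direction and no longer passed, 11 moved and 7 reversed. Words more frequent than in tiles ranged from 17 to 19 when each chromosome was left out in turn, and words less frequent from 2 to 4. The ratio by promoter state ranged from 1.89 to 1.98, and the density ratios from 0.817 to 0.837 over 1 to 10 kb, 1.63 to 1.74 over more than 50 kb and 0.753 to 0.790 over introns. Without GC standardisation, 6 words were less frequent than in tiles, and the log2 ratios turned to −0.41 for IRF, −0.12 for FOX, 0.39 for CACCTG and 0.33 for YY1. Against sequence 5 kb to either side, 5 words were less frequent, with −0.24 for IRF, 0.19 for CACCTG and 0.27 for YY1. These backgrounds differ in GC content from the windows. In windows and tiles without AP-1, a setting chosen after seeing the data, 12 words were more frequent, where fewer windows entered. Among named words, the Ets word with CpG, CAGCTG, NFI, CACGTG and the E-box CACCTG did not pass there. Without standardisation 2 words were more frequent than at 1 to 10 kb, without chromosomes 7, 8, 9 and X 1 word was less frequent than beyond 50 kb, and with 200 bp each 2 words were less frequent at the centre. The cause was not tested. The luminal list stood at 1.28 windows per 100 kb and all protein-coding genes at 1.44 with the nearest protein-coding start, where more zone is shared out, and all protein-coding genes at 1.43 without chromosomes 7, 8, 9 and X. Stretches of 3 or more held 9.79% of the windows when joined at 5 kb and 29.7% when joined at 25 kb. SP at the centre did not pass with 200 bp each (log2 ratio 0.44). The repeat-masked background was not run because the genome used marks no repeats. No paired analysis was possible because all wells form 1 pooled group. Without scores or counts, the list cannot show how windows just past the authors' limit of 50000 would change these values.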
